A study of Rattus norvegicus with 4 samples.

Results

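Synaptic vesicle and release genes encode the proteins that load, dock, prime and fuse the vesicles from which a nerve ending releases transmitter. The 44 genes described here were taken as named families, and the rule that lists them uses no measured value, although results of these data were known when it was written. They are synapsins, vesicle membrane proteins, synaptotagmins, Doc2 proteins, SNARE proteins, complexins, Rab3 proteins, beta-synuclein, active zone scaffolds and Munc13 proteins. A probe was found for 43 of them among the 15443 genes named on the array. Syp, synaptophysin, is not analysed here. Where a gene had several probes the brightest was used, which touches 9 of the 43.

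Vesicle fusion is driven by SNARE proteins, of which Vamp1 and Vamp2 sit on the vesicle and Stx1a and Snap25 on the plasma membrane. Munc13 proteins make docked vesicles ready to fuse, complexins bind the assembled SNARE complex, and synaptotagmins and Doc2 proteins bind calcium and membrane to time the fusion. Most of these proteins come as families of paralogues, and nerve cells of different brain regions are known to use different members of a family.

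RNA was measured with 1-colour Agilent arrays in 4 groups of male rats, with 1 array each: depressive cerebellum, control cerebellum, depressive prefrontal cortex and control prefrontal cortex. Of 106 untreated rats scored in the forced swimming test, where time spent immobile is read as depressive-like behaviour, rats selected for such behaviour are called depressive and rats of average score are called control. Both groups had thus been through the swim test, and 50 rats were killed 1 week later. Each array carries equal amounts of RNA pooled from 4 rats, taken from slices 1 mm thick, and the labels give no age and do not say whether the same rats gave both tissues. The states are therefore a selection by behaviour, not a treatment, and a difference between states within a tissue has no replicate check.

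The arrays carried the tissues their groups name. Of 15 cerebellum markers, 15 were called higher in cerebellum, with a median log2 difference of 4.88, and all 13 measured cortex markers were called lower there, with a median of -4.48. For depressive cerebellum and control cortex, the sample's deposited values match the scanner file linked to the other of this pair, at correlations of 0.99989 and 0.99998, while each correlates at 0.933 with its own linked file. Each group is taken from the file that its deposited values match, which is also how the files are named. Tissue markers cannot tell a depressive array from a control array. Probes well above background numbered 22201 and 23759 of 30367 on the depressive and control cerebellum arrays, and 23369 and 23121 on the depressive and control cortex arrays.

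Paralogues of the Munc13 and synaptotagmin families lay on opposite sides between tissues, so the promoters of a pair from each are shown. They run from 250 bases before to 50 after the annotated start, 5′ to 3′ on the gene's strand, from RefSeq in build GRCr8. Capitals mark a GC box, GGGCGG, or the left arm of an RE1 element, TTCAGCACC, found on either strand. Unc13c lies at chr8:83553773-83554072 on the minus strand, Unc13a at chr16:18415737-18416036 on the minus strand, Syt9 at chr1:170687555-170687854 on the plus strand and Syt1 at chr7:46244164-46244463 on the minus strand. The first of each pair was higher in cerebellum and the second lower.
Unc13c: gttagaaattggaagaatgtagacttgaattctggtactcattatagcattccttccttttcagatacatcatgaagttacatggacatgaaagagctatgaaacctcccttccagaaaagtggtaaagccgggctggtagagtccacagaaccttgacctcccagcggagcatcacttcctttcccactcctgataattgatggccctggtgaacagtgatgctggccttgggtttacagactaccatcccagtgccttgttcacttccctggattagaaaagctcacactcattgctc
Unc13a: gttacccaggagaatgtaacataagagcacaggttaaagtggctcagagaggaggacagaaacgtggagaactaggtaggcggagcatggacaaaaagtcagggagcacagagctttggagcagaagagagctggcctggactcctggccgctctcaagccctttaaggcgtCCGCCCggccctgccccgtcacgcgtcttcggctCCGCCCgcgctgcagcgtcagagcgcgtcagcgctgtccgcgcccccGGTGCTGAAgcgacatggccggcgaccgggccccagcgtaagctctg
Syt9: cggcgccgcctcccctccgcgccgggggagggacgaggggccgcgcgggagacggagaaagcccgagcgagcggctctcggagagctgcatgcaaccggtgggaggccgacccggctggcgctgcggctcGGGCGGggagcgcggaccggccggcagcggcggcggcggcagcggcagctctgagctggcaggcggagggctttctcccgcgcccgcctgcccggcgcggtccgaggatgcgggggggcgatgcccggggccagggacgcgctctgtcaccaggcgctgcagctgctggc
Syt1: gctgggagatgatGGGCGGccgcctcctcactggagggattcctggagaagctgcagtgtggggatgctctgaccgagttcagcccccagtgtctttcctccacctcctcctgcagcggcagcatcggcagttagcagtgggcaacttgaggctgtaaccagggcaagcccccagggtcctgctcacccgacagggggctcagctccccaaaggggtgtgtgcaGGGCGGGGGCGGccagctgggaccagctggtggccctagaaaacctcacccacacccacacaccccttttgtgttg
Of 43 members 30 matched a promoter in that table. A GC box stood in 23 of the 30 (76.7%), and in 33.1% of all 33469 promoters of the same length. The median share of G and C was 62.8% in members and 51.7% in all promoters, so that a match to letters made of G and C is more frequent where there is more of both. The promoter of Unc13c, at 45.7% the lowest of the 30, held none of the motifs searched, and that of Syt9, at 79.7%, was the highest. The RE1 arm stood in the promoter of Unc13a, on the minus strand of the sequence shown, and in 0.356% of all promoters. A cyclic AMP response element, TGACGTCA, stood in 2 of 30 members (Vamp1 and Syn1) and in 1.83% of all, and a TATA box, TATAAA, in 0 of 30 and in 14.2% of all. A match is a run of letters and does not show that a factor binds there.

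Most members of the release machinery differed between tissues, and within several families they did so in opposite directions. A limma fit of tissue with state as a block, over 12451 genes and with Benjamini-Hochberg adjustment, called 10 of 43 members higher in cerebellum (23.3%) and 27 lower (62.8%), where over all genes 32.4% were called higher and 37.2% lower. At 2-fold or more in both states stood 5 members higher in cerebellum (11.6%), against 8.1% of all genes, and 15 members lower (34.9%), against 12.9% of all genes. The median of the members' fitted differences was -0.63 on the log2 scale and that of all genes -0.04. In the tissue fit the pools of the other state serve as the replicates of a tissue, with 1 residual degree of freedom. Its p-values rest on how far the tissue difference disagreed between the states, with a variance moderated over all genes fitted. They do not measure a gene's own spread between pools of the same state. Tissue cannot be told apart from anything else that differed between the slices. In a piece of tissue, fewer cells of a type and less RNA per cell cannot be told apart.

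**Figure D1:**
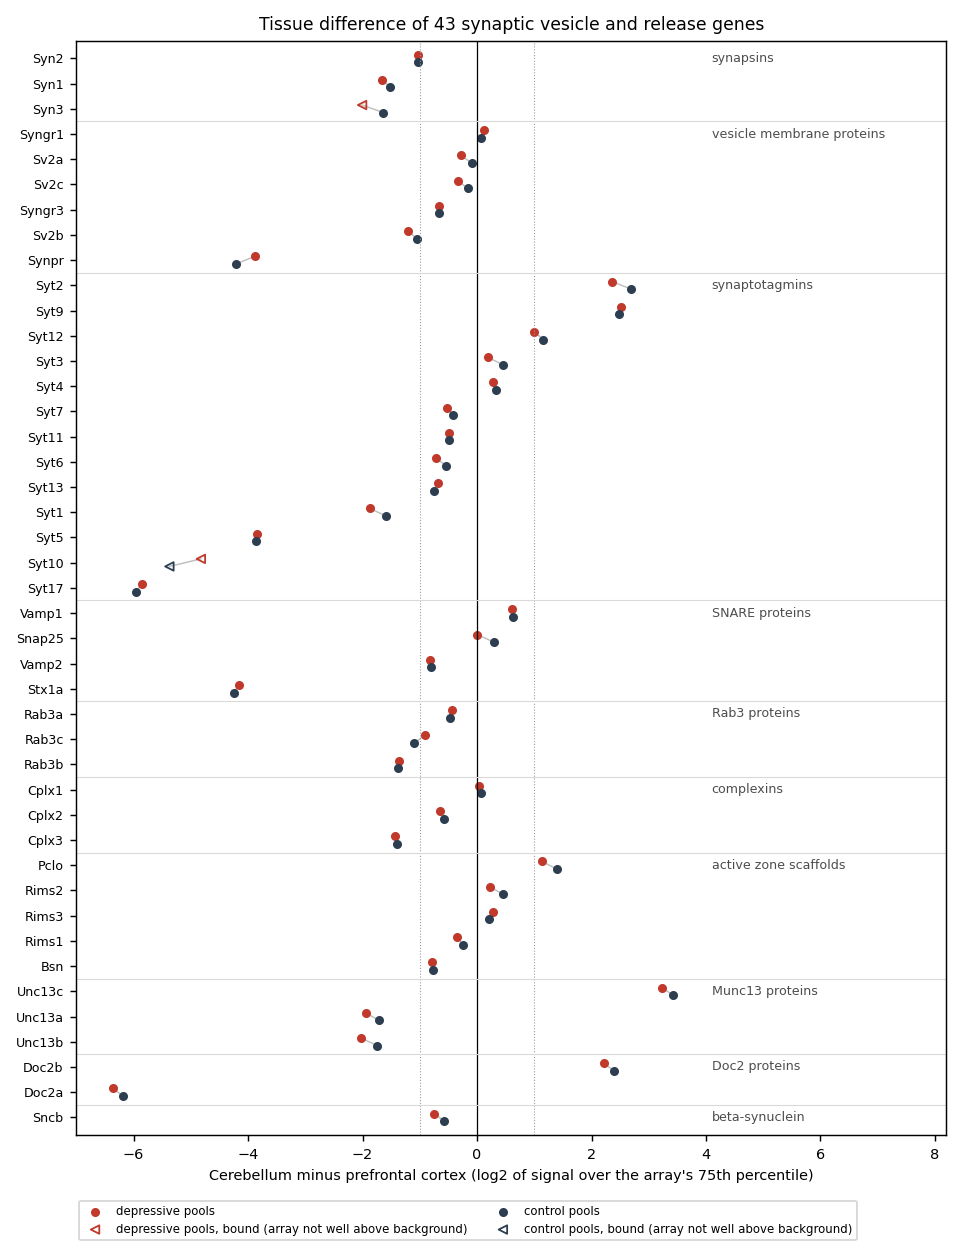
Difference between cerebellum and prefrontal cortex (x axis, log2 of the scaled signal) for the 43 members on the array, by family, with depressive pools in red above control pools in dark blue. Dotted lines mark 2-fold, and open triangles mark values where the cerebellum array was not well above background. These are bounds for Syt10 and the measured ratio for Syn3. Unc13c, Syt2, Syt9 and Doc2b lie far to the right and Doc2a, Syt17, Syt10, Stx1a, Synpr and Syt5 far to the left, in both states.

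Levels below are given as a percentage of the array's 75th percentile signal, so that 100% is a probe as bright as that percentile. Probes differ in brightness for the same amount of RNA, and levels are compared only between arrays for the same gene. An SE of a tissue difference is that of the fit, and p-values are adjusted over all genes fitted. For a faint gene that SE can lie below the error between spots. Syt6 had 0.07 in the fit, against 0.34 and 0.25 between spots in the depressive and control pools.

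The synapsins, which tether vesicles to one another and to actin in the nerve ending, were lower in cerebellum in 3 of 3 cases. Syn1 was at 48.0% and 55.8% in depressive and control cerebellum, against 151% and 160.2% in depressive and control cortex. Its fitted difference was -1.59 (SE 0.06, limma adjusted p = 0.00174). Syn2 was at 119.8% and 126.6% in cerebellum, against 244.8% and 259.9% in cortex, a fitted difference of -1.03 (SE 0.05, limma adjusted p = 0.00216), which was between -0.94 and -0.98 under 4 of 5 other settings. For both genes the cerebellum arrays lay below the cortex arrays with no overlap. Such a separation, in either direction, held for 39 of 43 members and for 10951 of all 12451 genes. Syn3 was faint, at 0.469% (not well above background) and 0.618% in depressive and control cerebellum, against 1.89% and 1.92% in cortex. By measured signal it was 4.02-fold lower in cerebellum in the depressive pools and 3.11-fold lower in the control pools (limma adjusted p = 0.0034). The spot SEs of these log2 differences were 0.43 and 0.36. The gene entered the fit through its cortex arrays only, so that this p-value is no separate support. Its fitted difference was -1.82, and -0.77 after normexp background correction.

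Of 6 vesicle membrane proteins measured, 3 were called lower in cerebellum and 0 higher. Synpr, synaptoporin, a relative of synaptophysin known from mossy fibre endings of the hippocampus, had the widest gap among them. It was at 6.78% and 5.89% in depressive and control cerebellum, against 100.1% and 108.5% in cortex, which is 14.8-fold and 18.4-fold lower in cerebellum (fitted difference -4.04, SE 0.11, limma adjusted p = 0.00109). Its second, dimmer probe gave -4.03 and -4.18 in the depressive and control pools. The SV2 proteins are vesicle glycoproteins needed for normal release, and 3 paralogues were measured. Sv2b was at 20.9% and 22.9% in cerebellum, against 48.0% and 47.6% in cortex, a fitted difference of -1.13 (SE 0.06, limma adjusted p = 0.0028). Sv2a, the form bound by the antiepileptic drug levetiracetam, had a fitted difference of -0.19 (SE 0.07) and Sv2c one of -0.25 (SE 0.07), and neither passed (limma adjusted p = 0.108 and 0.0584). Of the synaptogyrins, Syngr3 was 1.58-fold lower in cerebellum in both states (limma adjusted p = 0.00408). Syngr1 had a fitted difference of 0.10 (SE 0.05, limma adjusted p = 0.18).

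The synaptotagmins spread over the widest range of any family with more than 2 members, from -5.91 to 2.52 on the log2 scale. Of 13, 4 were called higher in cerebellum and 8 lower. Among the fast calcium sensors, the cerebellum arrays were high in Syt2 and Syt9 and the cortex arrays in Syt1. Syt1, the sensor for synchronous release in forebrain neurons, was at 25.7% and 31.3% in depressive and control cerebellum, against 94.6% and 93.7% in cortex (fitted difference -1.73, SE 0.10, limma adjusted p = 0.00281). Syt2, its closest relative, known from fast hindbrain synapses, was at 92.2% and 101.9% in cerebellum, against 18.1% and 15.7% in cortex (fitted difference 2.52, SE 0.11, limma adjusted p = 0.00201). Syt9, another calcium sensor of this kind, was at 13.4% and 15.4% in cerebellum, against 2.34% and 2.78% in cortex (fitted difference 2.50, SE 0.05, limma adjusted p = 0.000947), with 1.82 after normexp correction. For each of these genes the arrays of a tissue stood together and apart from those of the other tissue, as they did for most genes on the array.

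Syt17, Syt10 and Syt5 were high in cortex. Syt17, a form with no membrane anchor also called B/K protein, was at 5.96% and 6.22% in depressive and control cerebellum, against 343.4% and 388.1% in cortex, which is 57.6-fold and 62.4-fold lower in cerebellum (fitted difference -5.91, SE 0.06, limma adjusted p = 0.000807). Syt10, a calcium sensor known in mouse from growth factor release in the olfactory bulb, was not well above background on either cerebellum array, with 0.198% and 0.128% there, against 9.87% and 8.65% in cortex. It was at least 28.3-fold lower in cerebellum in the depressive pools and at least 41.5-fold lower in the control pools. These bounds hold for the processed signal, since after normexp background correction the fitted difference was -2.65, against -5.86. The gene entered the fit through its cortex arrays only. Its p-value (limma adjusted p = 0.000999) rests on those dim cerebellum values and is no separate support. Syt5, found on dense-core and other vesicles, was at 148% and 153.7% in cerebellum, against 2120.1% and 2235% in cortex (fitted difference -3.85, SE 0.05, limma adjusted p = 0.000807). Its cortex arrays were 14.3-fold and 14.5-fold above those of the cerebellum in the depressive and control pools.

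Smaller differences made up the rest of the synaptotagmins. Syt12, a form that does not bind calcium, was higher in cerebellum at 1.99-fold in the depressive and 2.24-fold in the control pools (limma adjusted p = 0.00326), which is at the edge of the 2-fold mark. Syt4, whose first calcium-binding domain lacks calcium binding, was 1.21-fold and 1.26-fold higher (limma adjusted p = 0.0201). Its dimmer probe gave smaller log2 differences, 0.09 and 0.17 in the depressive and control pools. Syt6, Syt7, Syt11 and Syt13 were called lower, with fitted differences between -0.72 for Syt13 and -0.47 for Syt7, the high-affinity sensor of slow, asynchronous release. Syt3, another high-affinity form, had a fitted difference of 0.32 (SE 0.09) that did not pass (limma adjusted p = 0.0596).

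**Figure D2:**
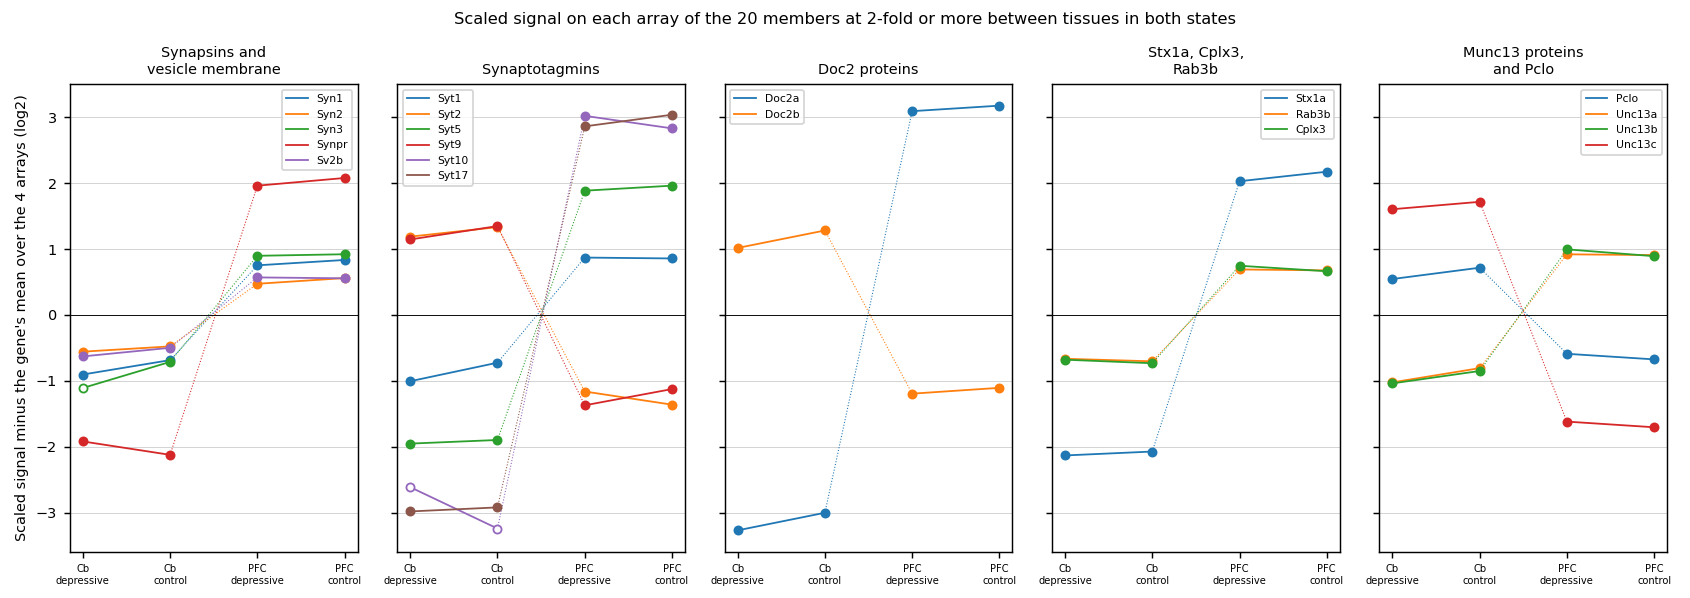
Scaled signal of the 20 members at 2-fold or more between tissues in both states, on each of the 4 arrays (x axis), as log2 minus the gene's own mean over the arrays (y axis). Solid lines join the states of a tissue and dotted lines the tissues, and open circles are arrays on which the gene was not well above background. Syt2, Syt9, Doc2b, Pclo and Unc13c lie above 0 on both cerebellum arrays, and the other 15 members below 0.

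The Doc2 pair showed the widest split of any family, 8.58 on the log2 scale between the fitted differences of its members. Doc2 proteins are soluble calcium sensors with high affinity, studied for spontaneous and asynchronous release. Doc2a was at 1.81% and 2.18% in depressive and control cerebellum, against 149.3% and 158.2% in cortex, which is 82.5-fold and 72.6-fold lower in cerebellum (fitted difference -6.27, SE 0.07, limma adjusted p = 0.000807, and -5.43 after normexp correction). Doc2b ran the other way, at 7.73% and 9.29% in cerebellum, against 1.67% and 1.77% in cortex, which is 4.64-fold and 5.24-fold higher in cerebellum (fitted difference 2.30, SE 0.07, limma adjusted p = 0.00128). After normexp correction its fitted difference was 1.35. On all 4 arrays both genes were well above background.

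Among the SNARE proteins, Stx1a stood apart. This plasma membrane SNARE was at 299.2% and 311.8% in depressive and control cerebellum, against 5365% and 5930.2% in cortex, which is 17.9-fold and 19.0-fold lower in cerebellum (fitted difference -4.21, SE 0.05, limma adjusted p = 0.000807). The vesicle SNAREs parted by less. Vamp1 was 1.53-fold and 1.55-fold higher in cerebellum in the depressive and control pools (limma adjusted p = 0.00455), and Vamp2 was 1.77-fold and 1.74-fold lower (limma adjusted p = 0.00302). The dimmer probe of Vamp1 gave smaller log2 differences, 0.29 and 0.40 in the depressive and control pools. Snap25, the other plasma membrane SNARE, had a fitted difference of 0.15 (SE 0.10) that did not pass (limma adjusted p = 0.261).

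Of 3 complexins, 2 were called lower in cerebellum. Cplx3, a form known from ribbon synapses of the retina, was at 4.89% and 4.71% in depressive and control cerebellum, against 13.1% and 12.4% in cortex (fitted difference -1.41, SE 0.05, limma adjusted p = 0.00148). Cplx2 was 1.56-fold and 1.49-fold lower (limma adjusted p = 0.00537). Cplx1 had a fitted difference of 0.05 (SE 0.05, limma adjusted p = 0.396). Both brighter and dimmer probes of Cplx1 lay above 0, the dimmer at 0.23 and 0.41 in the depressive and control pools.

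The Rab3 proteins, small GTPases that bring vesicles to the active zone, were called lower in cerebellum in 3 of 3 cases. Rab3b was at 46.5% and 45.3% in depressive and control cerebellum, against 119.2% and 118% in cortex (fitted difference -1.37, SE 0.05, limma adjusted p = 0.00153). Rab3c was 1.89-fold and 2.13-fold lower and Rab3a, the main form of brain, 1.35-fold and 1.38-fold lower, in the depressive and control pools (limma adjusted p = 0.00386 and 0.00825). Sncb, beta-synuclein, a vesicle-associated relative of alpha-synuclein, was 1.68-fold and 1.48-fold lower (limma adjusted p = 0.00805).

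The Munc13 family split as the synaptotagmins did. Unc13c, which encodes Munc13-3 and is known from cerebellar granule cells, was at 91.9% and 99.4% in depressive and control cerebellum, against 9.83% and 9.26% in cortex, which is 9.35-fold and 10.73-fold higher in cerebellum (fitted difference 3.32, SE 0.08, limma adjusted p = 0.000976). Unc13a, the main priming factor of forebrain glutamate synapses, was at 11.2% and 13.1% in cerebellum, against 43.3% and 42.9% in cortex (fitted difference -1.83, SE 0.08, limma adjusted p = 0.00204). Unc13b was at 2.95% and 3.36% in cerebellum, against 12.1% and 11.3% in cortex (fitted difference -1.89, SE 0.10, limma adjusted p = 0.00247). The second probe of Unc13c gave 2.71 and 2.75 in the depressive and control pools.

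Of 5 active zone scaffolds, 3 were called higher in cerebellum and 2 lower, and 1 reached 2-fold in both states. Pclo, which encodes the giant scaffold Piccolo, was at 87.0% and 98.0% in depressive and control cerebellum, against 39.6% and 37.3% in cortex (fitted difference 1.26, SE 0.09, limma adjusted p = 0.00383). Its second probe, designed on another RefSeq transcript of the gene, gave 0.15 and 0.28 in the depressive and control pools, so that the 2-fold difference was seen with 1 of 2 probes. Bsn, which encodes the related scaffold Bassoon, was 1.72-fold and 1.70-fold lower in cerebellum (limma adjusted p = 0.00322). The RIM proteins, which link vesicles to calcium channels, differed by less, with fitted differences of -0.30 for Rims1, 0.34 for Rims2 and 0.25 for Rims3 (limma adjusted p = 0.025, 0.0418 and 0.0316). For Rims2 the dimmer probe had the opposite sign, -0.45 and -0.19 in the depressive and control pools.

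Outside the members, the wider release list of 58 genes had 47 in the fit, of which 15 were called higher in cerebellum (31.9%) and 20 lower (42.6%), near the shares over all genes, with a median of -0.13. The lowest were Rimbp2, a RIM-binding protein, at -4.86 (SE 0.05), Lin7b, a scaffold partner, at -3.22 (SE 0.05), Erc2, an active zone protein, at -2.98 (SE 0.05), and Rab27b, a GTPase of secretory vesicles, at -1.46 (SE 0.05). The highest were Ppfia4, a liprin, at 2.91 (SE 0.05), Rab27a at 1.70 (SE 0.06), Ppfia1, another liprin, at 1.15 (SE 0.05), and Stxbp2, a Munc18 paralogue, at 1.02 (SE 0.05), with limma adjusted p between 0.000807 and 0.00236 for the 8 genes. Rab27a and Rab27b, paralogous GTPases, thus lay on opposite sides of 0, as did the Doc2 pair.

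Genes that recover vesicle membrane after fusion leaned to the cortex. Of 21 endocytosis genes, 4 were called higher in cerebellum (19.0%) and 14 lower (66.7%), beside 32.4% and 37.2% of all genes. Their median was -0.45. General neuron genes leaned alike, with 64.3% called lower and a median of -0.45. Ston2, which recovers synaptotagmin, was at -1.84 (SE 0.05) and Pacsin1, a membrane-bending protein, at -1.18 (SE 0.05), followed by Sh3gl3 at -1.17 (SE 0.05) and the adaptor subunit Ap2m1 at -0.71 (SE 0.05). Dnm3, a dynamin that cuts vesicles from the membrane, was at 1.14 (SE 0.05), and Sh3gl2, endophilin A1, at 0.93 (SE 0.06), with Sh3gl1 at 0.37 (SE 0.07) and Dnm2 at 0.28 (SE 0.05). The endophilins Sh3gl2 and Sh3gl3 therefore parted between tissues.

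The proton pump that acidifies vesicles so that transmitter can be loaded showed one direction. Of 16 pump genes, 15 were called lower in cerebellum (93.8%) and 0 higher, beside 37.2% and 32.4% of all genes. Their median was -0.39. The lowest were Atp6v1d at -0.996 (SE 0.05), Atp6v1g1 at -0.68 (SE 0.07), the brain form Atp6v1g2 at -0.67 (SE 0.06) and Atp6v1c1 at -0.60 (SE 0.05). General neuron genes, which are not specific to release, had 3 of 14 called higher and 9 lower, with a median of -0.45, and whether the share of neuron RNA differs between the slices was not tested.

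Between states, no member passed a test. A limma fit of state with tissue as a block called 0 of 41 members and 0 of 11623 genes (0%), with 6 members and 870 genes at an unadjusted p under 0.05. The lowest adjusted p among members was 0.656. This fit takes cerebellum and cortex as the replicates of a state, although the same rats may have given both. It averages the state difference over the tissues, so that it is not built to find one that is confined to a single tissue or opposite between them. The fit called 5 genes after normexp background correction, none of them a member. What follows are differences between single pools, with the SE between repeated spots of a probe as their error, which is technical.

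In the cerebellum, 37 of 41 members measured on both arrays were lower in the depressive pool, and the median of the members was -0.09 on the log2 scale. Over all genes 60% lay below 0 with a median of -0.03. The members' differences were small. At a log2 difference of 0.32 or more, 2 members were lower (4.88%), beside 3.63% of all genes, and 0 were higher, beside 3.42% of all genes. Among the other lists, 15 of 15 cerebellum markers, 16 of 21 endocytosis genes, 13 of 16 pump genes and 10 of 14 general neuron genes also lay below 0, with medians of -0.12, -0.08, -0.05 and -0.03. The wider release list had 31 of 47 genes below 0 and a median of -0.03.

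Syt3 and Sv2c were those 2 genes, of which Sv2c fell short of 0.32 under median scaling, quantile normalization and normexp correction, at -0.30, -0.28 and -0.25. Syt3 was at 29.2% in depressive and 39.99% in control cerebellum, 1.37-fold lower in the depressive pool (log2 difference -0.46, SE 0.07 between spots). Its spots, 2 per array, ran from 27.3% to 31.2% on the depressive and from 39.2% to 40.8% on the control array, with no overlap. Its difference in cortex was -0.19 (SE 0.06). Sv2c was faint, at 2.39% in depressive and 3.03% in control cerebellum, 1.27-fold lower, with an SE of 0.23 on a log2 difference of -0.34. Its spots overlapped, from 2.10% to 2.72% on the depressive and from 2.61% to 3.53% on the control array.

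The next 4 members in size were all lower in the depressive cerebellum pool. Syt1 differed by -0.28 (SE 0.06), Doc2a by -0.27 (SE 0.11), Doc2b by -0.27 (SE 0.16) and Syn1 by -0.22 (SE 0.05). Doc2a is faint in cerebellum, so that its difference rests on a signal of 1.81% in the depressive and 2.18% in the control pool. The 4 members above 0 in cerebellum were Synpr, Syt6, Cplx3 and Rab3b, named after their values were seen. Synpr alone among them exceeded 2 spot SEs, at 0.20 (SE 0.07), and its second probe gave 0.10. The SE of Synpr is set by its mean with the brighter cortex arrays and may be too small.

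In the prefrontal cortex the members lay on both sides of 0. Of 43, 25 were lower and 18 higher in the depressive pool, with a median of -0.03, beside 51.8% of all genes below 0 and a median of -0.01. No member reached 0.32 on the log2 scale, beside 3.36% of all genes higher and 2.31% lower at that mark. In both tissues 23 of 41 members lay below 0 (56.1%) and 3 above. Of all 11623 genes, 34.6% lay below 0 in both and 2651 genes above 0 in both.

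**Figure D3:**
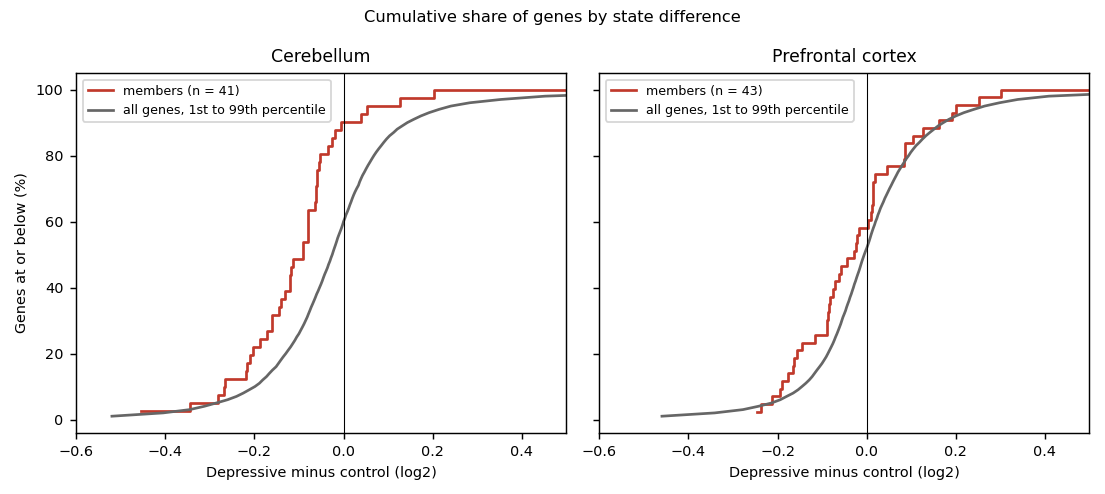
Cumulative share of genes (y axis, %) at or below a given difference between depressive and control pools (x axis, log2), for members in red and for the 1st to 99th percentile of all genes in grey. In cerebellum the members' curve lies left of that of all genes and 90.2% of members lie below 0, and in prefrontal cortex 58.1% do.

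Snap25 had the firmest difference in cortex by the error between spots. It was at 2791% in depressive and 2343% in control cortex, 1.19-fold higher in the depressive pool (log2 difference 0.25, SE 0.02, 10 spots per array). Spots ran from 2681% to 2868% on the depressive and from 2116% to 2504% on the control array, with no overlap. A second probe, on another RefSeq transcript of the gene, gave 0.26. In cerebellum the gene stood at 2801% in depressive and 2869% in control pools, a difference of -0.03 (SE 0.02), and its second probe gave -0.0040.

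The largest value in cortex belonged to Syt6, a faint gene at 2.68% in depressive and 2.18% in control cortex, with a difference of 0.30 and an SE of 0.26. Syt2, the sensor that is low in cortex, was at 18.1% in depressive and 15.7% in control cortex, a difference of 0.20 (SE 0.06). The other 3 named members were lower in the depressive cortex pool, Syt9 by -0.25 (SE 0.11), Rab3c by -0.24 (SE 0.08) and Rims3 by -0.21 (SE 0.06). Syt9 is faint in cortex, and its SE, set by its mean with the brighter cerebellum arrays, may be too small. Rims3 was at 77.2% in depressive and 89.5% in control cortex, and its spots, 2 per array, did not overlap.

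**Figure D4:**
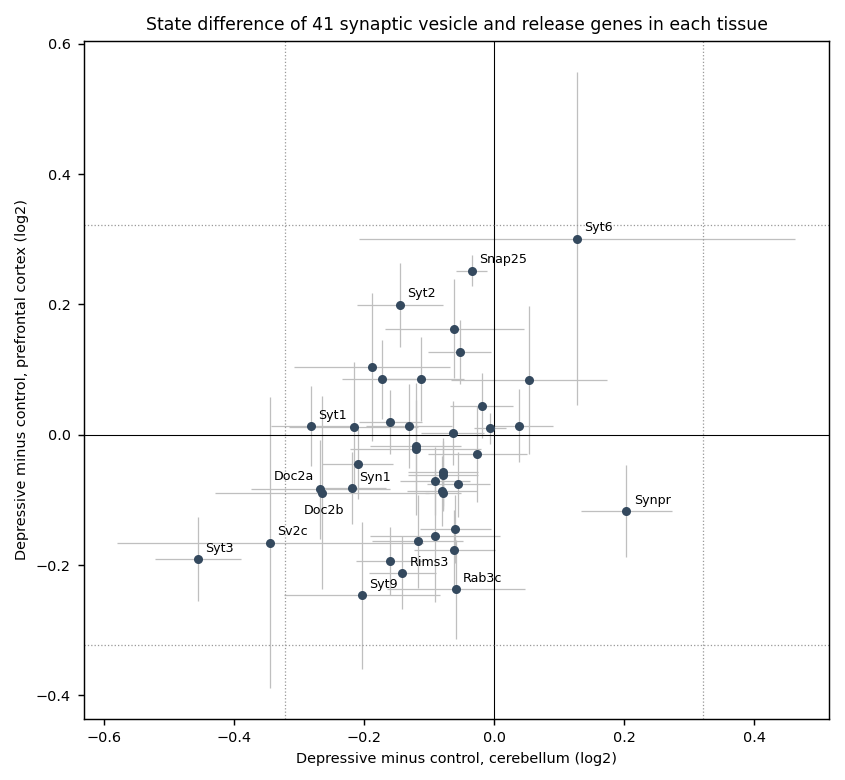
Difference between depressive and control pools (log2) in cerebellum (x axis) and in prefrontal cortex (y axis) for the 41 members well above background on all arrays, with bars of 1 SE between spots. Dotted lines mark 0.32, and the genes named for their size, with Synpr, are labelled. Most points lie left of 0, Syt3 and Sv2c past the dotted line, and Snap25 and Syt2 above 0 in cortex and below 0 in cerebellum.

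By family, the Munc13 proteins were below 0 in 3 of 3 cases in cerebellum and in 0 of 3 in cortex, with medians of -0.19 and 0.09. Their cortex values were near the error between spots: Unc13a 0.01 (SE 0.10, with 1 spot per array), Unc13b 0.10 (SE 0.11) and Unc13c 0.09 (SE 0.06). The second probe of Unc13c gave -0.04 in cortex. Over all genes, 60% lay below 0 in cerebellum and 51.8% in cortex. The active zone scaffolds were below 0 in 5 of 5 and 3 of 5 cases, with medians of -0.12 and -0.02. The synapsins were below 0 in both tissues where measured, with medians of -0.15 in cerebellum and -0.08 in cortex, and the Rab3 proteins in 2 of 3 cases in each tissue, with medians of -0.06 and -0.19. These counts were not tested.

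Several marker lists of other cell types differed between the same arrays, some by more than the members' medians. In cortex, 12 of 12 oligodendrocyte genes were higher in the depressive pool, with a median of 0.30 and a summed level of 16322% in the depressive and 15493% in the control pool. There 10 of 10 meningeal genes lay above 0, with a median of 0.83 and sums of 4059% and 2060% in the depressive and control pools. Choroid plexus genes had a median of 0.61 in cerebellum, with 8 of 9 above 0, and of -0.44 in cortex, with 3 of 6 above 0. Their sum was 342% in the depressive and 964% in the control cortex pool, where 6 and 7 of the 9 genes were well above background. Red cell genes lay above 0 in 5 of 5 cases in both tissues, their medians being 2.82 in cerebellum and 2.30 in cortex, with sums of 1289.5% and 287% in depressive and control cerebellum and of 2051% and 504% in depressive and control cortex. Pituitary hormone genes differed between the pools too. Gh1, growth hormone, was at 0.163% in depressive and 22.01% in control cerebellum and at 0.123% in depressive and 0.919% in control cortex, and Prl, prolactin, at 0.176% in depressive and 6.48% in control cerebellum. Of 5 pituitary genes, 1 and 5 were well above background in depressive and control cerebellum, and 1 and 3 in depressive and control cortex, with sums of 26.4% and 58.5%, and of 32.0% and 34.3%, in the same order. Cerebellum markers in the cortex arrays had a median of -0.11, with 9 of 13 below 0. Astrocyte genes had medians of -0.03 and -0.02, and microglia genes of 0.12 and -0.07, in cerebellum and cortex. The part of these in the members' state differences was not tested.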

How the data were processed

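The labels' protocols state that 400 ng of pooled RNA was labelled with Cy3. Per the file headers, Agilent Feature Extraction 10.7.1.1 (protocol GE1_107_Sep09) read the scans and gave a background-subtracted intensity and flags for each spot, with rn4 named as the genome build. The deposited value table holds the authors' linear intensity per probe for 23207 probes, and the sources used here do not state its scaling. Groups follow titles and source names, and arrays the match of that table to the scanner files, a reading known from earlier results of these data. The description fields of the depressive samples name the other tissue. The 44 members and the gene lists were also chosen with earlier results of these data known.

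After removal of control and outlier spots, the log2 processed intensities of a probe's spots were averaged and set against the 75th percentile of the array. That percentile was 4365 and 4009 on the depressive and control cerebellum arrays and 3274 and 3119 on the depressive and control cortex arrays. The number of arrays limits the precision. RefSeq accessions stand on 22031 of the 30367 probes, and a GRCr8 gene table gave names to 18355, which make 15443 genes. A probe was well above background with that flag on 50% or more of its spots, a gene with any such probe. The tissue fit took the 12451 genes so flagged on both arrays of at least 1 tissue, the state fit the 11623 so flagged on all 4. Fits used limma 3.58.1 (lmFit, eBayes) in R 4.3.3, on tissue and state. They were also run on simulated data with noise drawn from the fit's own variance, which cannot show the spread between pools. A bound sets a dim array at the higher of its own signal and the array's lowest well-above-background signal. Where its own signal is the higher, as for Syn3, the value is the measured ratio. Spot SEs are the spread between spots pooled over probes in 1 of 20 brightness bins, scaled to the probe's number of spots. Bins follow a probe's mean over the 4 arrays, so a gene bright in 1 tissue can have too small an SE in the other. Members called in the tissue fit at 2-fold or more in both states are given on every array, and between states the 6 members with the largest difference per tissue. In the wider lists, up to 4 genes per direction with the largest fitted tissue difference are named. Alternatives were median scaling, quantile normalization, normexp background correction with an offset of 50 (on the median signal, since the mean signal is not a column here), the mean over a gene's probes, the deposited table, files as linked, other filters on dim probes, no state block and an intensity trend.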

Additional observations from a re-analysis of the deposited data

Results flagged for a closer look

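Syt2 differed between depressive and control pools in opposite directions in the tissues, by more than 2 spot SEs in each. It was at 92.2% in depressive and 101.9% in control cerebellum, a log2 difference of -0.14 (SE 0.07 between spots), and at 18.1% in depressive and 15.7% in control cortex, a difference of 0.20 (SE 0.06). The cerebellum difference minus the cortex difference was -0.34 on the log2 scale. The cerebellum difference stood at 2.19 spot SEs, at 2.01 under quantile normalization, and below 2 under median scaling (1.54), normexp correction (1.92) and the deposited table (1.78), with the same sign. With 1 array per group, the difference between tissues was not tested.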

How the results depend on the processing

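No paired analysis was possible because each group holds 1 array, beyond the state block that the tissue fit has as its own term, and for the same reason no replicate could be left out. Under median scaling, quantile normalization, normexp correction, the mean over probes and the deposited table, the counts of members called or at 2-fold between tissues stayed within 1.5 times, and the 20 named tissue differences kept their sign and an adjusted p under 0.05. Not every one stayed past 2-fold: 12 to 15 members were lower and 4 to 6 higher at that mark, and Pclo was at 0.74 with the mean over probes. Normexp correction moved Syt10 to -2.65, Syn3 to -0.77, Doc2b to 1.35, Doc2a to -5.43 and Syt9 to 1.82. The number of members past a log2 difference of 0.32 in cerebellum was 1, not 2, under median scaling, quantile normalization and normexp correction. The 12 named state differences kept their sign under these 5 settings, and 4 moved by more than their spot SE: Doc2a to -0.10, Syn1 to -0.16 and, in cortex, Syt9 to -0.13 under normexp correction, and Snap25 to 0.31 under quantile normalization. Members below 0 in cerebellum numbered 33 to 37 over the settings and in cortex 21 to 31. With files taken as linked, 0 members were called higher and 0 lower between tissues, 0 and 0 were at 2-fold, and 37 were called between states. Past 0.32 stood then 25 members higher and 10 lower in cerebellum and 26 higher and 7 lower in cortex, with medians of 0.56 and 0.64. That reading turned the tissue differences of Syn1 (0.15), Syn2 (0.083), Syn3 (0.21), Syt1 (0.13), Syt2 (-0.028), Syt5 (0.066), Syt17 (0.12), Stx1a (0.10), Sv2b (0.059), Unc13a (0.10), Unc13b (0.042) and Doc2a (0.18), because it places a cerebellum and a cortex array in each tissue. No state block, other filters on dim probes and an intensity trend moved no count of members by over 1.5 times. Faint genes such as Syn3, Syt10, Sv2c and Syt6 lie near the background, where spots disagree most.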
